A study of Mus musculus with 16 samples.

Results

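Near-projecting neurons were taken from the nuclei of the medial PFC by their marker counts. A nucleus was a member when it had no UMI of Gad1 or Gad2, at least 2 UMIs of Tshz2, at least 4 UMIs of Tshz2, Vwc2l and Trhr together, at most 1 UMI of Foxp2, and at most 1 UMI of the glial and vascular genes Aqp4, Mag, Csf1r, Pdgfra and Flt1 together. This rule gave 1470 nuclei of 114512 in the table of 19999 genes. Each of the 16 mice contributed between 42 and 130 members.

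The nuclei came from male mice, with 4 mice per group, at 22 weeks of age per the labels. The WT controls (B6;129; mice 26, 27, 28 and 36) and 3xTg-AD controls (mice 12, 13, 14 and 21) received pyrazole, an inhibitor of alcohol dehydrogenase, in saline and breathed air. Alcohol-exposed WT mice (mice 6, 7, 17 and 18) and alcohol-exposed 3xTg-AD mice (mice 4, 31, 33 and 34) received ethanol with pyrazole and repeated cycles of chronic intermittent alcohol vapor, so pyrazole was shared by all 4 groups. Per the paper, the tissue was taken more than a week after the last vapor exposure and days after a water maze test. Alcohol, also in the words under alcohol, therefore means a history of exposure below. 3xTg-AD mice carry human APP with the Swedish mutation and human tau with the P301L mutation, both under a Thy1 cassette that is active in neurons. The 3xTg-AD and WT mice may also differ in the B6 and 129 segments they inherited, and these and the transgenes cannot be told apart in the genotype comparison.

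Near-projecting neurons are glutamatergic cells of the deep cortical layers whose axons stay close to the cell body, unlike the corticothalamic and extratelencephalic neurons that lie among them. Tshz2 encodes a zinc finger transcription factor of the teashirt family. Vwc2l encodes a secreted protein with von Willebrand factor C domains, and Trhr encodes the receptor of thyrotropin-releasing hormone, which signals through Gq proteins and phospholipase C.

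A member had 1769 UMIs and 1199 detected genes at the median, against 1543 UMIs over all nuclei and 2067 in the 52283 other glutamatergic nuclei (Slc17a7 detected, no Gad1 or Gad2, glial sum at most 1). The members of a mouse summed to between 84885 and 254433 UMIs. In 3 mice, the ribosomal RNA-like transcript Gm42418 stood apart. It took 25470 CPM (UMIs scaled to a total of 1000000) of the member UMIs in WT control 26, 12423 in WT control 27 and 16492 in 3xTg-AD control 12, against 1697 to 3585 CPM in the other 13 mice. All 3 belong to groups not exposed to alcohol, so most called genes of the alcohol and combined contrasts are given below also without them. Of all nuclei, 2.97% shared their barcode with a nucleus of another library, among them 48 members, and 0 members shared one with a member of another mouse.

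The markers of the rule were unevenly detected among the members. A UMI of Vwc2l was found in 615 members (41.8%, 95% Wilson interval 39.3% to 44.4%) and one of Trhr in 169 (11.5%, 9.97% to 13.2%). Only 75 members (5.10%) had both, and 761 (51.8%) were members by Tshz2 alone. In the other glutamatergic nuclei, Tshz2 was found in 3.87%, Vwc2l in 1.47% and Trhr in 0.669% of nuclei. In 687 oligodendrocyte nuclei, which should lack these genes, the shares were 2.91%, 0.582% and 0.291% at a median of 951 UMIs. These intervals cover counting error only. The sum of the 3 markers was 6 at the median and at most 25. It was exactly 4 in 288 members, while 311 nuclei that met all other criteria had a sum of 3 and stayed outside. The nuclei at a sum of 4 and at a sum of 3 held 233 and 195 CPM of Htr2c, 564 and 517 CPM of Etv1, and 146 and 74.1 CPM of Col24a1, in that order. A further 220 nuclei met every criterion except the absence of Gad1 and Gad2.

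The vesicular glutamate transporters were checked as a marker of glutamatergic identity that the rule did not use. Slc17a7 (VGLUT1) was detected in 67.6% of members and Slc17a6 (VGLUT2) in 11.6%, the latter against 1.29% of other glutamatergic and 1.46% of oligodendrocyte nuclei. Those nuclei were chosen in part by Slc17a7 and give no comparison for it. In 966 nuclei chosen by Foxp2 and Syt6, Slc17a7 was detected in 83.3%, at a higher median of 2741 UMIs. Neither transporter was detected in 424 members (28.8%). Of 17 further near-projecting markers, listed from general knowledge of the cortex, 16 were in the table and 10 reached a mean of 50 CPM in members or in other glutamatergic nuclei. Of these 10, Lypd1, Htr2c, Cpne4, Etv1, Fezf2 and Tle4 were at least 2-fold higher in members at the median over mice. Their number is no support for the label, since Htr2c, Lypd1 and Fezf2 reached 50 CPM only through the members. Htr2c, the Gq-coupled serotonin 2C receptor, was at 271 ± 79.2 CPM (SD, n = 16 mice) in members and at 14.4 ± 3.13 CPM in other glutamatergic nuclei. The transcription factor gene Etv1 was at 555 ± 107 and 93.5 ± 18.5 CPM, and Fezf2, a selector gene of deep layer neurons, at 177 ± 39.0 and 46.5 ± 10.9 CPM. Itga8, an integrin gene on the same marker list, went the other way, at 2.54 ± 4.59 CPM in members and 24.1 ± 7.04 CPM in other glutamatergic nuclei. Nxph2 and Met of this list were nearly absent from members, with UMIs in 5 and 2 of 16 mice.

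Markers of other deep layer types were mixed in the members. Of the corticothalamic markers, 3 reached 50 CPM, and their median log2 ratio to other glutamatergic nuclei was 0.98, against 0.13 over all genes. Hs3st4 was higher in members in 16 of 16 mice (82.7 ± 29.5 against 32.7 ± 11.1 CPM), Rprm was at 75.2 ± 31.5 against 37.3 ± 13.2 CPM, and Garnl3 at 122 ± 34.2 against 95.2 ± 24.9 CPM. Syt6, at 8.04 ± 6.64 against 11.2 ± 5.65 CPM, and Sulf1, at 6.18 ± 5.98 against 17.5 ± 7.64 CPM, stayed under that level. Tle4 was at 682 ± 67.3 CPM in members and at 668 ± 183 CPM in 966 nuclei chosen by Foxp2 and Syt6. The extratelencephalic marker list had 1 gene past 50 CPM, Bcl11b, at 241 ± 31.6 CPM in members and 90.8 ± 16.3 CPM in other glutamatergic nuclei. Npr3 and Pou3f1 of the same list were lower in members than in other glutamatergic nuclei in 16 of 16 mice. Of the 7 intratelencephalic markers at 50 CPM, Cux2, Rorb and Lamp5 were at least 2-fold lower in members and 0 were 2-fold higher. A marker could reach 50 CPM through the population where it is high, so these counts are no support for the label. The nuclei are called near-projecting below after the rule that chose them.

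The genes that set the near-projecting nuclei apart were described against the other glutamatergic nuclei of the same mouse, without a test, since expression chose the members. Among 4684 genes outside the rule with a mean of at least 50 CPM in either population, 155 (3.31%) were at least 2-fold higher at the median over mice and higher in all 16 mice, and 107 (2.28%) were at least 2-fold lower and lower in all 16. Against the Foxp2 and Syt6 nuclei, 95 of the same 4684 genes were higher and 38 lower by the same limits on fold and mice. The level in Foxp2 and Syt6 nuclei did not enter the choice of these genes. A gene high only there could not be counted as lower, so the numbers of higher and lower genes cannot be compared. WT control 28 had only 10 Foxp2 and Syt6 nuclei. Ratios below are the median over mice of log2(CPM + 1) in members minus that in other glutamatergic nuclei and CPM relative to all UMIs of the population.

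**Figure D1:**
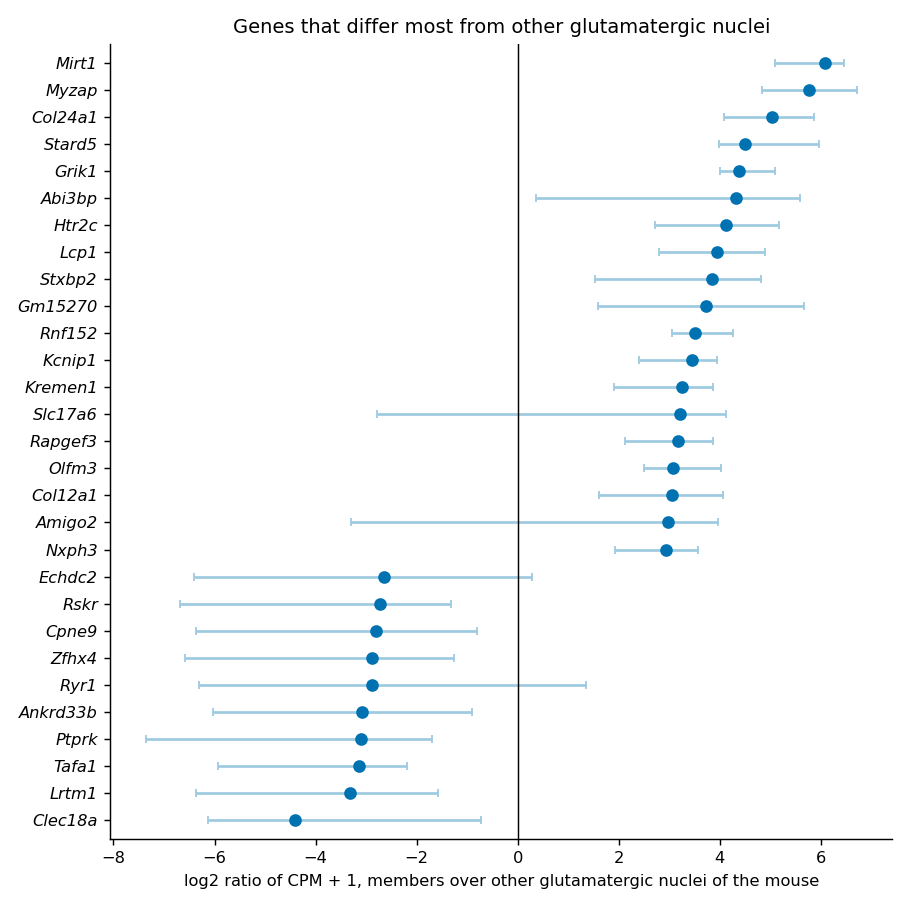
Within-mouse log2 ratio of CPM + 1 in near-projecting nuclei over other glutamatergic nuclei for genes with the largest and the smallest median ratios. Points are medians over 16 mice and bars run from the lowest to the highest mouse. The ratio of Mirt1 is 6.07 at the median, and the bars of Slc17a6, Amigo2, Echdc2 and Ryr1 cross 0.

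The leading genes came from several functional groups. The long noncoding RNA Mirt1 had the largest ratio (6.07, 5.09 to 6.46 over mice), at 228 ± 69.5 CPM in members and 2.76 ± 1.40 CPM in other glutamatergic nuclei. Myzap, which encodes a protein of cell junctions, followed at 5.76 (116 ± 36.5 against 1.07 ± 0.49 CPM). Extracellular matrix genes were represented by the fibrillar collagen gene Col24a1 (5.03), Abi3bp (4.33) and Col12a1 (3.06). Abi3bp spread widely between mice, with a ratio from 0.35 to 5.59. Among receptor genes, Grik1, which encodes the kainate receptor subunit GluK1, was at 282 ± 55.9 CPM against 11.8 ± 3.24 CPM (ratio 4.37). Slc17a6 had a ratio of 3.21, was higher in 15 of 16 mice, and had 0 UMIs among the members of the remaining mouse.

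The receptor and channel lists are described by their genes past 2-fold at the median, a limit that 3.76% of the 4684 genes passed upward and 2.90% downward. A gene could enter a list count through the population where it is high, so the counts are a description only. Of 14 ionotropic glutamate receptor genes at 50 CPM, Grik1, Grik3 and Grid1 were at least 2-fold higher in members and Gria3 2-fold lower (479 ± 81.7 against 1093 ± 79.2 CPM). The list median was 0.13, the same as over all genes. Of 11 GABA-A and glycine receptor genes, Gabrg3 was higher (ratio 1.40) and Gabra2 lower (-1.02). Of 11 monoamine, acetylcholine and peptide receptor genes, Htr2c and the muscarinic M2 receptor gene Chrm2 were higher (4.12 and 2.83), and Chrm3, Cckbr and Cnr1 were among the lower genes (-1.99, -1.96 and -1.03). Chrm2 was at 62.9 ± 19.2 CPM in members and Chrm3 at 15.4 ± 11.5 CPM, against 7.06 ± 1.18 and 57.2 ± 9.29 CPM in other glutamatergic nuclei. Of 24 potassium channel genes, Kcnk2, Kcnt2 and Kcnip1 were higher and Kcnd3, Kcnj6 and Kcnq5 lower. Kcnk2, which encodes a background channel of the TREK family, was at 341 ± 53.1 against 73.9 ± 33.5 CPM. None of the 20 sodium, calcium and HCN channel genes was 2-fold higher, and Cacna1h and Cacna2d3 were 2-fold lower (-1.78 and -2.29).

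Among adhesion genes, Cdh18, Pcdh17, Cntnap5a and Cntn6 were at least 2-fold higher in members, and Cdh10, Cdh13, Pcdh15, Nrxn3, Cntn5 and Lrrtm4 were 2-fold lower. Contactin 6 was at 120 ± 40.6 against 21.5 ± 3.96 CPM, and contactin 5 at 28.7 ± 17.2 against 146 ± 20.3 CPM. Of 22 synaptic vesicle release genes at 50 CPM, Unc13b (Munc13-2, a priming factor) was the 1 gene past 2-fold, at 524 ± 95.02 against 146 ± 21.1 CPM. In the thyrotropin-releasing hormone axis, 7 genes reached 50 CPM. Trhde, which encodes the enzyme that degrades the hormone, was 2-fold higher in members (96.2 ± 29.8 against 35.2 ± 8.98 CPM), as was Prkca (168 ± 49.1 against 74.99 ± 11.2 CPM), and Prkcb was lower in 16 of 16 mice (171 ± 36.9 against 288 ± 34.4 CPM). Trh itself, the hormone, was at 6.47 ± 7.08 CPM in members and 0.63 ± 0.41 CPM in other glutamatergic nuclei.

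The question of how genotype and alcohol bear on these neurons was first asked of their number. Near-projecting nuclei made up 1.15% ± 0.434 of the nuclei of WT controls (SD, n = 4), 1.23% ± 0.379 in alcohol-exposed WT mice, 1.43% ± 0.460 in 3xTg-AD controls and 1.42% ± 0.245 in alcohol-exposed 3xTg-AD mice. The lowest share was 0.601% in WT control 26 and the highest 1.94% in 3xTg-AD control 12, which are both mice with high Gm42418, and all groups overlapped. The 8 3xTg-AD mice and the 8 WT mice differed by 0.234 percentage points (two-sided exact permutation test, p = 0.214, adjusted p = 0.514 over 3 comparisons). The difference between alcohol-exposed 3xTg-AD mice and WT controls was 0.270 points (p = 0.343, adjusted p = 0.514; exact permutation test, smallest p possible 0.0286). For alcohol against air it was 0.0358 points (exact permutation test, p = 0.851, adjusted p = 0.851), and -0.0624 points without WT control 26. Without the 3 mice of high Gm42418, the genotype difference was 0.0682 points and the combined difference 0.0339 points. No difference in share was detectable at this spread between mice.

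**Figure D2:**
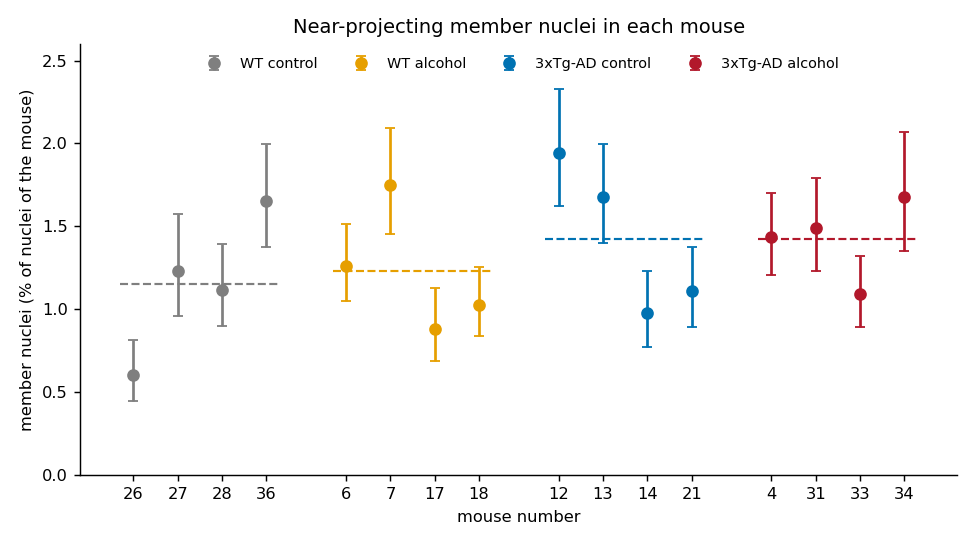
Share of near-projecting nuclei among the nuclei of each mouse, in percent, with 95% Wilson intervals as bars, by group. Dashed lines are group means. The groups overlap, from 0.601% in WT control 26 to 1.94% in 3xTg-AD control 12.

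Expression was then compared over mice, on the UMIs of all members summed per mouse. Levels from here on are CPM after TMM scaling over the genes that passed the filter on low counts, and differences are log2 fold changes ± SE from edgeR with p-values of its quasi-likelihood test adjusted by Benjamini-Hochberg over 5137 genes. In sums of nuclei, fewer nuclei with the RNA and less RNA per nucleus cannot be told apart. Of the 11 rule genes, which chose the members and have no test, Tshz2 ranged from 3200 to 4690 CPM over the 16 mice, Vwc2l from 255 to 436 CPM and Trhr from 37.2 to 122 CPM, and the groups overlapped in each.

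Mouse App, Mapt, Thy1 and Prnp did not pass the test between genotypes. The table has no row for a human transgene, and the values below are of the rows of the mouse genes. Whether reads of the transgenes were counted in these rows was not tested. App was at 613 ± 190.0 CPM in WT controls, 857 ± 118 in alcohol-exposed WT mice, 637 ± 162 in 3xTg-AD controls and 606 ± 77.2 in alcohol-exposed 3xTg-AD mice. Its genotype difference was -0.23 ± 0.13 (edgeR, adjusted p = 0.789). Differences of Thy1 and Prnp were 0.05 ± 0.15 and -0.08 ± 0.16, and that of Mapt ran from -0.04 to 0.09 over the alternatives. The counts do not show which alleles a mouse carried.

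Between genotypes, averaged over alcohol, 10 genes were higher and 16 lower in near-projecting nuclei of 3xTg-AD mice (0.506% of the genes tested, 0.195% higher and 0.311% lower). Of the 25 that were named by a fixed rule, 14 passed the test in every one of up to 23 alternatives in which they were tested. The higher genes included 5 neighbors at the distal end of the X chromosome, and 5 of the 26 called genes lay on chromosome 9, which held 303 of the 5101 tested genes with a position (5.94%). The lower genes included the transcription factor gene Rreb1, the collagen gene Col24a1, and Timp4, an inhibitor of metalloproteinases.

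The X-linked genes were Gpm6b, Trappc2, Tmsb4x, Frmpd4 and Msl3 (GENCODE M21 on mm10, chromosome X from 166238911 to 168673898). No other gene in this stretch of 2.435 Mb was tested, and none of the other X-linked genes among 162 tested on this chromosome was called. Gpm6b, which encodes a membrane protein of the proteolipid family, was at 447, 235, 343 and 359 CPM in WT controls, 454, 374, 478 and 535 in alcohol-exposed WT mice, 569, 585, 565 and 595 in 3xTg-AD controls, and 726, 762, 821 and 876 in alcohol-exposed 3xTg-AD mice. Every 3xTg-AD mouse was above every WT mouse, and the genotype difference was 0.77 ± 0.12 (edgeR, adjusted p = 3.5e-05). Tmsb4x encodes thymosin beta 4, which binds actin monomers. It was at 893, 621, 1436 and 1238 CPM in WT controls, 1501, 1771, 1347 and 1760.5 in alcohol-exposed WT mice, 1727, 3250.1, 3463 and 2863 in 3xTg-AD controls, and 3089.6, 2144, 3397 and 2014 in alcohol-exposed 3xTg-AD mice. It rose by 1.08 ± 0.16 (edgeR, adjusted p = 0.000646), and 3xTg-AD control 12 lay below the highest WT mice. Frmpd4, which encodes a scaffold protein of the postsynaptic density, was at 69.8 to 197 CPM in WT mice and 207 to 307 CPM in 3xTg-AD mice without overlap (1.14 ± 0.18, edgeR, adjusted p = 1.3e-05). Trappc2 and Msl3 rose by 1.31 ± 0.28 and 1.61 ± 0.38. Msl3 had 1 to 6 UMIs in each WT mouse and 3 to 14 in each 3xTg-AD mouse. It lost its call in 6 of 21 alternatives, each without 1 mouse, at 1.49 to 1.58.

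On chromosome 9, Rpl29 and Lztfl1 rose and Atp2c1 and its antisense transcript Gm19667 fell, with Aste1, which rose, at the end of Atp2c1. Rpl29, a gene of the large ribosomal subunit, was at 44.7, 28.2, 52.0 and 9.31 CPM in WT controls and 69.8, 13.8, 28.5 and 19.3 in alcohol-exposed WT mice. It was at 137, 81.8, 113 and 81.6 CPM in 3xTg-AD controls and 158, 94.7, 209 and 113 in alcohol-exposed 3xTg-AD mice, all above the WT mice (1.97 ± 0.28, edgeR, adjusted p = 4.3e-06). These levels rest on few reads, with 2 to 12 UMIs of Rpl29 in each WT mouse and 10 to 37 in each 3xTg-AD mouse. Atp2c1 encodes a calcium and manganese pump of the Golgi apparatus. Its level was 298 to 513 CPM in WT mice and 175 to 312 CPM in 3xTg-AD mice (-0.79 ± 0.14, edgeR, adjusted p = 0.000288). Gm19667 (9:105470520-105480194, plus strand) and Aste1 (9:105395392-105412229, plus strand) each overlap Atp2c1 (9:105403539-105527319, minus strand), but not each other. Strand use in the counting is not given in the sources used here, so their reads may not be cleanly separated from those of Atp2c1. Rpl29 has close processed copies in the genome, and its count may be shared with them.

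Further genes fell in 3xTg-AD mice. Ccl27a, a chemokine gene, was at 141 to 249 CPM in WT mice and 61.5 to 114 CPM in 3xTg-AD mice without overlap (-1.24 ± 0.18, edgeR, adjusted p = 4.3e-06), and Pamr1 at 113 to 239 and 75.3 to 113 CPM (-0.88 ± 0.19). Galnt1, which starts mucin-type glycosylation, fell by 1.59 ± 0.24 on the log2 scale, and WT alcohol mouse 6, at 279 CPM, stood above the other WT mice (92.7 to 179). Adcy2, an adenylyl cyclase gene, fell by 0.84 ± 0.16, and Col24a1 by 0.96 ± 0.19. Another 3 transcripts fell and had at most 7 UMIs in each 3xTg-AD mouse. Gm17167 had 3 UMIs in the 8 3xTg-AD mice together and 17 to 58 in each WT mouse except WT alcohol mouse 6, which had 0, and it lost its call without the 3 mice of high Gm42418. Rnf121, an E3 ubiquitin ligase gene, was at 16.3 to 40.9 CPM in 3xTg-AD mice and 208 to 1155 CPM in WT mice except WT alcohol mouse 17, at 14.3 CPM. Gm8797 had at most 2 UMIs in each 3xTg-AD mouse and 1 in each of WT control 27 and WT alcohol mouse 6, against 3 to 17 in the remaining WT mice. Ccl27a has near-identical copies in the genome, so its count is uncertain.

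Several genes of single pathways also differed with overlapping groups. Usp37, a deubiquitinase gene, was at 59.6, 65.8, 125 and 88.5 CPM in WT controls, 46.5, 179.9, 71.3 and 90.3 in alcohol-exposed WT mice, 193, 239.7, 151 and 188 in 3xTg-AD controls, and 167, 208, 204 and 144 in alcohol-exposed 3xTg-AD mice. Only WT alcohol mouse 7 reached the range of the 3xTg-AD mice (1.05 ± 0.20, edgeR, adjusted p = 0.000605). Abi3bp, an extracellular matrix gene with a high ratio in near-projecting nuclei, was at 452 ± 148 CPM in 8 WT mice and 733 ± 144 CPM in 8 3xTg-AD mice (0.67 ± 0.15). It was lowest in WT control 26, at 164 CPM, and lost its call in 5 alternatives, at 0.60 to 0.67, among them the Gm42418 covariate. Lztfl1, a regulator of ciliary transport, was at 105 ± 28.04 and 189 ± 51.9 CPM and lost its call with at least 6 marker UMIs (0.76), without 3xTg-AD control 12 (0.71) and without the 3 mice of high Gm42418 (0.67). Esco1, a cohesin acetyltransferase gene, fell by 0.98 ± 0.22 on the log2 scale, and was no longer called without WT control 27 (-0.78) or without the 3 mice (-0.72). Slc24a2, which encodes an exchanger of sodium for calcium and potassium, fell by 0.78 ± 0.18 and lost its call in 7 alternatives, at -0.61 to -0.71. Wwox fell by 1.22 ± 0.29 and lost its call in DESeq2 (-1.23), without WT control 36 (-1.06) and without 3xTg-AD control 13 (-1.12). Trappc2 (1.195) and Pamr1 (-0.87) lost theirs with at least 6 marker UMIs, and Aste1 in DESeq2 (1.21) and without WT control 36 (1.09).

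**Figure D3:**
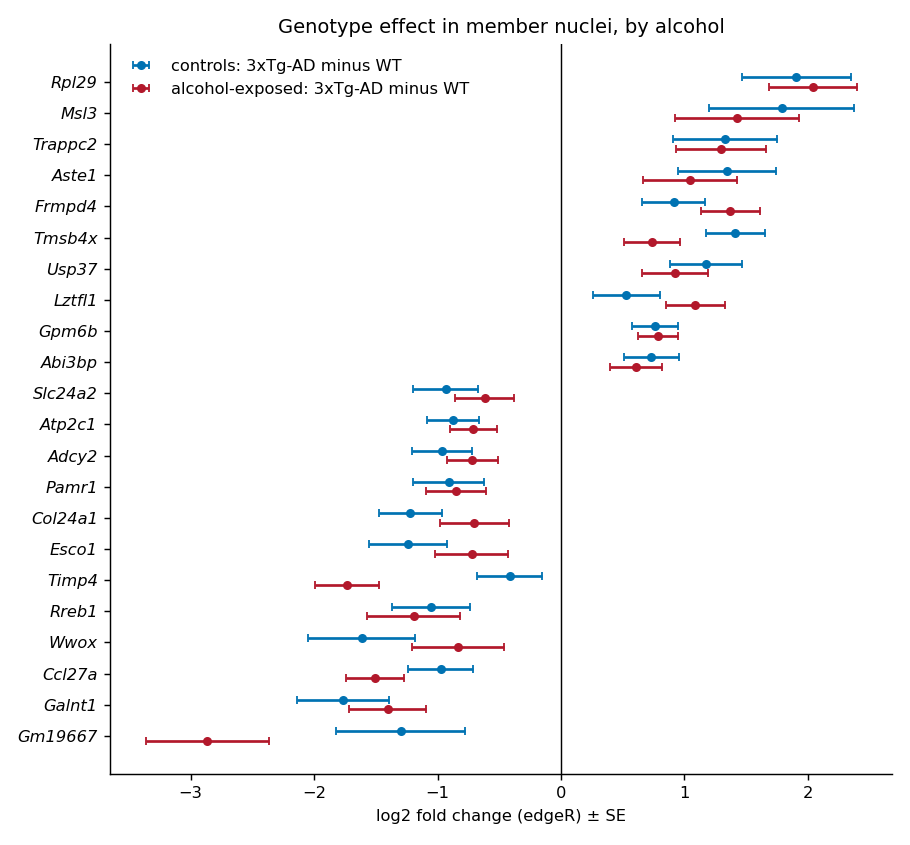
Log2 fold change ± SE (edgeR) of 3xTg-AD minus WT in near-projecting nuclei of controls (blue) and of alcohol-exposed mice (red), for the named genes called between genotypes. Gm17167, Rnf121 and Gm8797 are not drawn. Timp4 is at -0.42 in controls and -1.74 in alcohol-exposed mice.

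The genotype difference was also taken separately within controls and within alcohol-exposed mice. In controls, 3 genes passed the test (0.0584%; 1 higher, 0.0195%, and 2 lower, 0.0389%), Tmsb4x (1.41 ± 0.24), Col24a1 (-1.22 ± 0.26) and Galnt1 (-1.77 ± 0.37), all at an adjusted p of 0.0187 in edgeR. Each of these 3 calls was lost in some alternatives, among them the fit without members of very high UMI number and the fits without WT control 26 (Tmsb4x 1.36, Col24a1 -1.18, Galnt1 -1.68) and without WT control 36 (1.53, -1.22 and -1.63 in that order). Under alcohol, 10 genes passed (0.195%; 5 higher, 5 lower), and 7 of them did so in all alternatives in which they were tested. The other 3 were Lztfl1 (1.09), which lost its call in 7 alternatives at 0.96 to 1.14, Galnt1 (-1.41), which lost it in 6 at -0.85 to -1.40, and Gpm6b (0.79), which lost it in 4 at 0.70 to 0.78. The value of -0.85 for Galnt1 was that without WT alcohol mouse 6. Timp4 was at 283, 132, 427 and 209.5 CPM in WT controls, 314, 436, 249 and 316 in alcohol-exposed WT mice, 173, 199, 122 and 261 in 3xTg-AD controls, and 139.8, 85.2, 62.3 and 100.1 in alcohol-exposed 3xTg-AD mice. Under alcohol it was lower in 3xTg-AD mice by 1.74 ± 0.26 on the log2 scale (edgeR, adjusted p = 3.9e-05), while in controls the groups overlapped, with a difference of -0.42 ± 0.26 (adjusted p = 0.979). Fyco1 encodes an adaptor of autophagosome transport. Its difference of 3xTg-AD minus WT was 1.34 ± 0.26 in alcohol-exposed mice and 0.09 ± 0.28 in controls. The test of this difference itself, the interaction of genotype and alcohol, called 0 genes in edgeR and 0 in DESeq2. An unadjusted p under 0.05 in edgeR was found for 230 of 5137 genes (4.48%). Its values were -1.32 ± 0.37 for Timp4 (adjusted p = 0.992), 1.25 ± 0.39 for Fyco1 (adjusted p = 0.992) and 2.17 ± 0.51 for Rbms1, the smallest p (adjusted p = 0.349).

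Averaged over genotype, alcohol was followed by 5 higher and 6 lower genes (0.214% of the genes tested, 0.0973% and 0.117%). Of them, 2 passed the test in all 23 alternatives, Mgat4c and Dynlt1f. The other 9 genes lost their call when the Gm42418 share of each mouse was a covariate, and 7 did so without the 3 mice of high Gm42418. This covariate went with alcohol also outside the 3 mice. Over all nuclei, Gm42418 was at 3477 to 4249.5 CPM in the remaining controls and 2059 to 3912 CPM in alcohol-exposed mice. In the fit with the covariate, alcohol and Gm42418 therefore cannot be fully told apart. With the covariate, the differences of Parg, Rps4x and Rtn1 were smaller by over 1.5 times and those of the other 6 genes were not. Over all alternatives, Gm49179 lost its call in 16, Rreb1 in 14, Parg in 9, Rps4x in 8, Rtn1 and Macf1 in 6 each, Gm33533 in 5 of 22, Cntn3 in 4 and Stmn3 in 2. Without WT alcohol mouse 18, 2 genes were called for alcohol.

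Mgat4c, which encodes a glycosyltransferase of the family that branches N-glycans, was at 119, 329, 167 and 182 CPM in WT controls and 233, 443, 299 and 413 in alcohol-exposed WT mice. It was at 269, 134, 132 and 204 CPM in 3xTg-AD controls and 320.2, 459, 413 and 538 in alcohol-exposed 3xTg-AD mice. The 3xTg-AD groups did not overlap and the WT groups did, and the rise over both genotypes was 0.97 ± 0.17 (edgeR, adjusted p = 0.00109) and 1.22 without the 3 mice of high Gm42418. Dynlt1f, a dynein light chain gene with near-identical paralogs that may share its reads, was at 119, 141, 177 and 121 CPM in WT controls, 46.5, 48.4, 42.8 and 12.9 in alcohol-exposed WT mice, 71.1, 52.6, 75.3 and 97.9 in 3xTg-AD controls, and 36.1, 33.1, 39.6 and 31.3 in alcohol-exposed 3xTg-AD mice. Each alcohol-exposed mouse was below each control, and the difference was -1.44 ± 0.25 (edgeR, adjusted p = 0.00109) and -1.46 without the 3 mice.

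Cntn3, a contactin adhesion gene, was lower under alcohol by a log2 difference of -0.95 ± 0.19, which was -0.83 without the 3 mice and -0.80 with the Gm42418 covariate. Macf1, which encodes a linker of microtubules and actin, was at -0.57 ± 0.12, and at -0.48 and -0.53 in the same fits. Rreb1 was at -1.02 ± 0.25, and at -0.84 and -0.98. Stmn3, a stathmin that destabilizes microtubules, rose by 0.64 ± 0.13, kept its call without the 3 mice (0.60) and lost it with the covariate (0.59). Rtn1, a reticulon of the endoplasmic reticulum, rose by 0.52 ± 0.11 and was at 0.39 without the 3 mice and 0.30 with the covariate. Rps4x, a gene of the small ribosomal subunit with close copies in the genome, rose by 0.75 ± 0.17 and was at 0.56 and 0.44.

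Parg, which removes poly(ADP-ribose), fell by 1.04 ± 0.23, but its highest levels were in the mice with high Gm42418. It was at 283 CPM in WT control 26, 169 in WT control 27 and 183 in 3xTg-AD control 12, against 75.3 to 99.4 in the other controls and 42.8 to 96.8 in alcohol-exposed mice. Without the 3 mice its difference was -0.53 and with the Gm42418 covariate -0.37. The part of Gm42418 in the other alcohol results was not tested beyond these fits.

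Within genotypes, 3 genes passed the test for alcohol in WT mice (0.0584%; 2 higher, 0.0389%, and 1 lower), namely Dynlt1f (-1.85 ± 0.35), Rps4x (1.25 ± 0.25) and Stmn3 (0.88 ± 0.19). In 3xTg-AD mice it was 1 gene (0.0195%), Mgat4c (1.18 ± 0.23, edgeR, adjusted p = 0.0211), for which WT mice showed 0.77 ± 0.25 (adjusted p = 0.387). Stmn3 was at 354 to 396 CPM in WT controls and 549 to 806 CPM in alcohol-exposed WT mice, and at 366 to 509 and 436 to 713 CPM in the 3xTg-AD groups, which overlapped. Dynlt1f lost its call in WT mice with at least 6 marker UMIs (-1.85) and without WT alcohol mouse 18 (-1.56). Rps4x lost its call in WT mice in 6 alternatives and Stmn3 in 7, both of them with the Gm42418 covariate (0.94 and 0.83), without the 3 mice of high Gm42418 (1.01 and 0.88) and without WT control 27 (1.08 and 0.87), WT control 36 (1.25 and 0.85) or WT alcohol mouse 18 (1.18 and 0.79). Stmn3 also lost it without WT control 26 (0.89) and without WT alcohol mouse 6 (0.82), and Mgat4c in 3xTg-AD mice when any of 6 mice of these groups was left out (1.03 to 1.21). These calls were not shown to differ between genotypes, since the interaction called no gene.

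**Figure D4:**
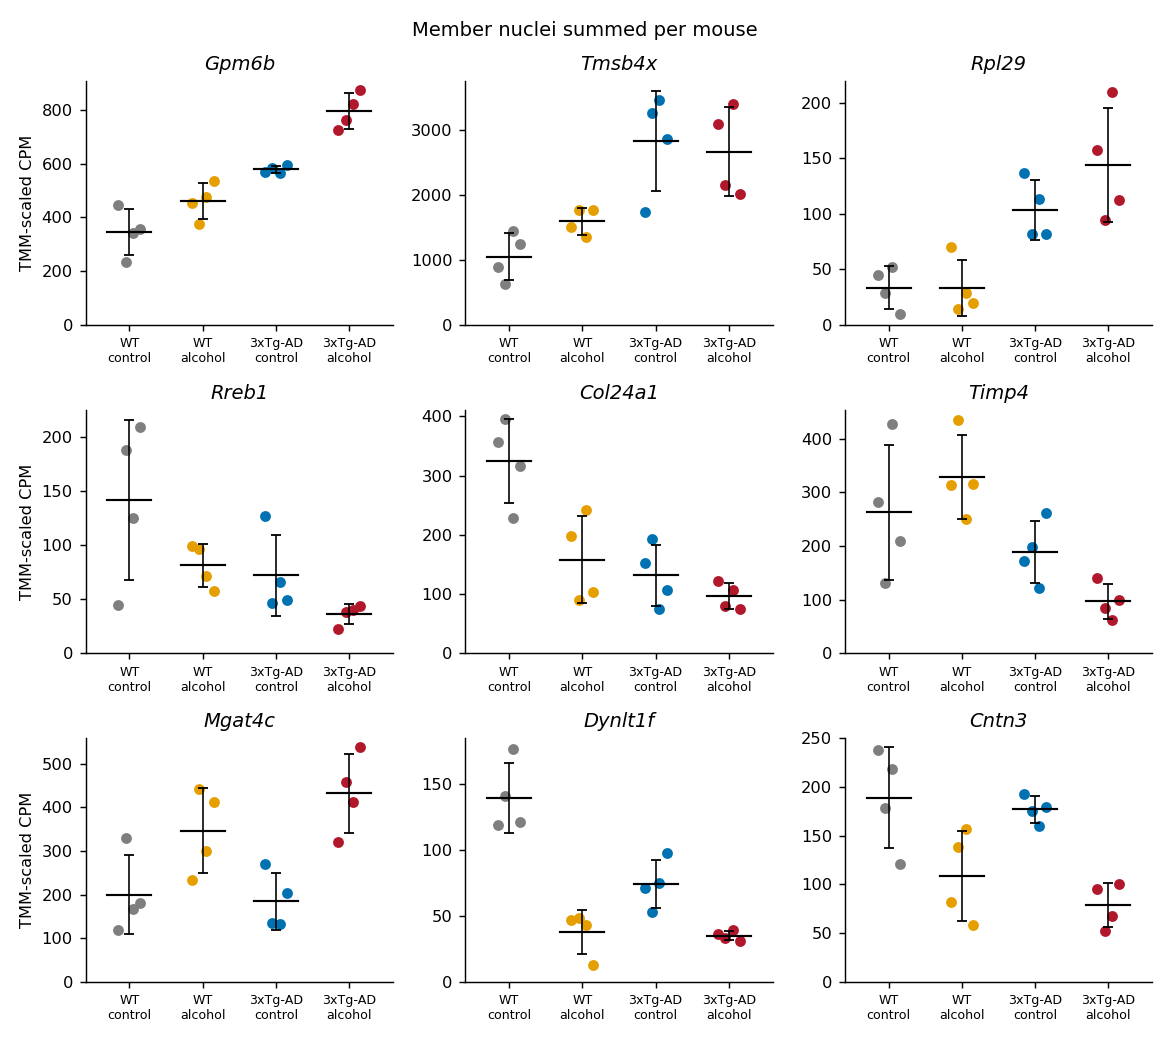
TMM-scaled CPM of 9 genes in near-projecting nuclei summed per mouse, by group. Points are mice, horizontal lines are group means and bars are SDs (n = 4). Gpm6b lies between 726 and 876 CPM in alcohol-exposed 3xTg-AD mice and between 235 and 447 in WT controls.

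The main comparison of the study, of alcohol-exposed 3xTg-AD mice with WT controls, called 6 higher and 10 lower genes (0.311% of the genes tested, 0.117% and 0.195%). It shares its mice with the genotype and alcohol comparisons above, so its calls are not independent of theirs. The genes with the smallest p were Gpm6b (1.22 ± 0.18, edgeR, adjusted p = 1.6e-05), Col24a1 (-1.73 ± 0.26, adjusted p = 1.7e-05) and Rreb1 (-2.15 ± 0.35, adjusted p = 6.4e-05). These 3, Rpl29 (2.35 ± 0.41) and Dynlt1f (-1.95 ± 0.33) passed the test in all 23 alternatives. Mgat4c (1.08 ± 0.24), Tmsb4x (1.33 ± 0.24), Frmpd4 (1.08 ± 0.25) and the splicing kinase gene Clk1 (0.74 ± 0.18) were also higher. Timp4 (-1.36 ± 0.28), Ccl27a (-1.17 ± 0.26), Cntn3 (-1.16 ± 0.28) and AY036118 (-0.78 ± 0.16) were also lower, as were 3 predicted genes. Of the 16 calls, 11 were lost in some of the 23 alternatives. Among the predicted genes, Gm17167 lost its call in 18, Gm19667 in 11 of the 22 in which it was tested, at -1.73 to -2.59, and Gm49179 in 9, at -0.86 to -1.08. Cntn3 lost its call in 11, at -0.96 to -1.28, Clk1 in 7, at 0.65 to 0.78, and Mgat4c in 6, at 0.97 to 1.05. AY036118 lost it in 5, at -0.41 to -0.70. Frmpd4 lost it in 4, without WT control 28 (1.02), WT control 36 (0.83), 3xTg-AD alcohol mouse 31 (1.07) or 34 (1.01). Ccl27a also lost it in 4, without a filter on low counts (-1.07), with at least 6 marker UMIs (-0.98), and without WT control 36 (-1.06) or 3xTg-AD alcohol mouse 31 (-1.05). Timp4 lost it without WT control 28 (-1.03) and without 3xTg-AD alcohol mouse 31 (-1.28), and Tmsb4x without WT control 26 (1.28). Without 3xTg-AD alcohol mouse 31 the comparison called 6 genes. Without the 3 mice of high Gm42418, the higher genes were at 1.19 (Gpm6b), 2.62 (Rpl29), 1.02 (Tmsb4x), 1.30 (Mgat4c), 1.53 (Frmpd4) and 0.85 (Clk1), and passed the test. Col24a1 (-1.52), Rreb1 (-2.30), Dynlt1f (-1.97), Timp4 (-1.54) and Ccl27a (-1.25) passed it as well, while 4 lower genes lost their call, among them Cntn3 (-0.97). With the Gm42418 covariate, Clk1 was at 0.73 without a call and Tmsb4x at 0.82 with one. AY036118, a ribosomal RNA-associated transcript, was at 1444 and 1344 CPM in WT controls 26 and 27 and was no longer called without them and 3xTg-AD control 12 (-0.57) or with the covariate (-0.41).

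Col24a1 and Rreb1 were lowest in alcohol-exposed 3xTg-AD mice. Col24a1, which the description above placed among the genes most particular in level to near-projecting nuclei, was at 357, 395, 229 and 317 CPM in WT controls, 198, 89.9, 242 and 103 in alcohol-exposed WT mice, 152, 193, 75.3 and 106 in 3xTg-AD controls, and 122, 80.5, 108 and 75.1 in alcohol-exposed 3xTg-AD mice. WT controls overlapped with alcohol-exposed WT mice and with no other group. Its difference for alcohol was -0.76 ± 0.19 averaged over genotype (edgeR, adjusted p = 0.0614), and it did not pass the test there. Rreb1, a zinc finger transcription factor gene that responds to Ras signaling, was at 44.7, 188, 125 and 209.5 CPM in WT controls, 98.9, 96.8, 71.3 and 58.0 in alcohol-exposed WT mice, 127, 46.8, 65.9 and 48.9 in 3xTg-AD controls, and 22.6, 37.9, 39.6 and 43.8 in alcohol-exposed 3xTg-AD mice. WT control 26, with 3 UMIs of Rreb1, lay among the 3xTg-AD mice, and alcohol-exposed 3xTg-AD mice had 5 to 8 UMIs of Rreb1 each. Its genotype difference no longer passed the test without WT control 36 (-0.96) and with at least 6 marker UMIs (-0.93), and its alcohol difference did not in 14 of 23 alternatives, at -0.76 to -1.07.

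Whether these changes differed from those of other glutamatergic nuclei was tested in 1 fit over both populations with the mouse as a block. The calls of this fit were not checked in the alternatives used above. For genotype, 5 of 5136 genes (0.0974%) differed, for alcohol 0 (277 of 5136 at an unadjusted p under 0.05), and for the combined comparison 1 (0.0195%). Rreb1 fell in near-projecting nuclei of 3xTg-AD mice and was at 0.20 in other glutamatergic nuclei, a difference of -1.36 ± 0.26 (edgeR, adjusted p = 0.00311). In the combined comparison the difference was -2.12 ± 0.36 (adjusted p = 0.000251). Usp37, a deubiquitinase gene, rose by 1.05 ± 0.20 in near-projecting nuclei against 0.18 in other glutamatergic nuclei (difference 0.91 ± 0.21, edgeR, adjusted p = 0.0363). Atp2c1 differed by -0.51 ± 0.12 (adjusted p = 0.0363), Nrxn3 by -0.50 ± 0.11 (adjusted p = 0.0363) and Col12a1 by -0.85 ± 0.20 (edgeR, adjusted p = 0.0459). Nrxn3 and Col12a1 did not pass the test between genotypes in near-projecting nuclei themselves. Col12a1 was at 0.36 ± 0.16 there and at 1.23 ± 0.29 in other glutamatergic nuclei, so both values were above 0. Nrxn3 was at -0.41 ± 0.15 and 0.11 ± 0.12 in the same order. The differences of the 5 X-linked genes did not pass the test, at -0.11 ± 0.10 for Gpm6b, 0.13 ± 0.07 for Tmsb4x, 0.08 ± 0.17 for Frmpd4, 0.35 ± 0.29 for Trappc2 and 0.59 ± 0.39 for Msl3. Col24a1 differed by -0.68 ± 0.26 (adjusted p = 0.625), at a level of 3.78 ± 1.49 CPM in other glutamatergic nuclei, which can hold near-projecting nuclei that stayed under the UMI limits of the rule. The other glutamatergic nuclei, with far more UMIs, had 381 calls for genotype among 15348 genes tested (2.48%), 363 for alcohol (2.37%) and 467 in the combined comparison (3.04%).

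**Figure D5:**
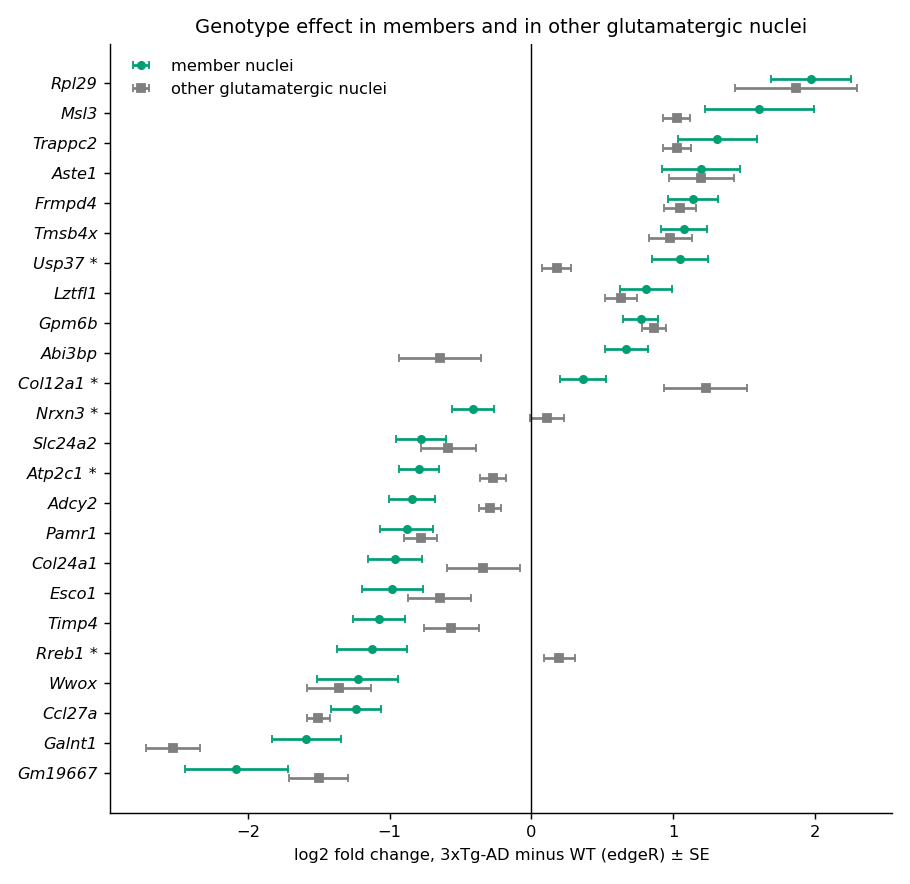
Log2 fold change ± SE (edgeR) of 3xTg-AD minus WT, averaged over alcohol, in near-projecting nuclei (green) and in other glutamatergic nuclei (grey). Asterisks mark the genes whose difference between the populations passed the test, which are Usp37, Col12a1, Nrxn3, Atp2c1 and Rreb1, and Gm17167, Rnf121 and Gm8797 are not drawn.

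Over all genes, 0.506% were called for genotype, 0.214% for alcohol and 0.311% in the combined comparison, and 6.79%, 10.7% and 9.42% had an unadjusted p under 0.05, so that lists of this size would hold few or no calls at the share of all genes. Of the 11 near-projecting markers outside the rule that could be tested, 0 were called in the genotype, alcohol or combined comparison in edgeR, and 2 had an unadjusted p under 0.05 for alcohol and 2 in the combined comparison. Lypd1 was at 157 ± 48.6 CPM in WT controls and 266 ± 60.4 CPM in alcohol-exposed 3xTg-AD mice (0.66 ± 0.23, edgeR, adjusted p = 0.290), and Htr2c at 232 ± 96.5 and 344 ± 11.5 CPM (0.45 ± 0.22, adjusted p = 0.507). Of 14 ionotropic glutamate receptor, 10 GABA-A and glycine receptor, 25 potassium channel, 19 sodium, calcium and HCN channel and 10 cadherin genes tested, 0 were called in any of the 3 comparisons by edgeR. The potassium channel list had 5 genes at an unadjusted p under 0.05 in the combined comparison, led by Kcnd2 (0.70 ± 0.29, adjusted p = 0.371) and Kcnj3 (-0.62 ± 0.28, adjusted p = 0.454). Cadherin genes under that limit included Pcdh17 (0.39 ± 0.15, edgeR, adjusted p = 0.351) and Pcdh10 (-0.39 ± 0.17, adjusted p = 0.418). Of 13 neurexin, neuroligin and contactin genes, Cntn3 was called for alcohol and in the combined comparison. In the thyrotropin-releasing hormone axis, 0 of 7 genes were called by edgeR, and Gnaq had the smallest p in the combined comparison (0.73 ± 0.29, adjusted p = 0.351), with 2 genes at an unadjusted p under 0.05.

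Of 6 ribosomal RNA-associated transcripts tested, AY036118 was called in the combined comparison, 3 had an unadjusted p under 0.05 for alcohol and 3 in the combined comparison, and the list medians were -0.15 for genotype, -0.35 for alcohol and -0.54 combined. This list includes Gm42418, which marked the 3 mice set apart. It also holds the protein-coding genes Lars2, Cmss1, Camk1d and Cdk8, so its medians are not of ribosomal RNA-like transcripts alone. The 56 cytosolic ribosomal protein genes of the list were tested and 0 were called, but the list does not hold Rpl29 and Rps4x, which were called as given above. Their median was 0.01 for genotype, 0.20 for alcohol, with 48 of 56 above 0, and 0.22 in the combined comparison, with 42 above 0. These medians are of the main fit only, and the 3 mice of high Gm42418 all belong to groups not exposed to alcohol. The part of these mice in the list medians was not tested. Over all genes the medians were -0.00 to -0.01, and 49.2% for alcohol and 48.4% in the combined comparison were above 0. The 12 mitochondrially encoded genes tested had 0 calls and medians of 0.01, -0.11 and -0.01 in the same order. Among 22 synaptic vesicle release genes, 0 were called, and Pclo (-0.53 ± 0.20, adjusted p = 0.342) and Syt7 (-0.39 ± 0.16, adjusted p = 0.388) had the smallest p in the combined comparison. With the Gm42418 covariate, Pclo was at 0.15. Of 15 genes at Alzheimer loci that could be tested, 0 were called by edgeR in the genotype, alcohol and combined comparisons. At an unadjusted p under 0.05 there were 0 genes for genotype, 2 for alcohol, Cd2ap (-0.43 ± 0.18, adjusted p = 0.346) and Clu (0.48 ± 0.20, adjusted p = 0.347), and 1 in the combined comparison, Clu (0.78 ± 0.28, adjusted p = 0.317). Of 13 chaperone genes tested, 0 were called by edgeR, with 0 genes at an unadjusted p under 0.05 for genotype, 0 for alcohol and 2 in the combined comparison, where Hspa8 was at 0.46 ± 0.18 (adjusted p = 0.358). Of 12 activity-dependent genes, 3 could be tested and 0 were called, with 0 at an unadjusted p under 0.05 in the 3 comparisons. None of the 22 interferon-stimulated and MHC class I genes passed the filter on low counts in these nuclei, so they were not tested with that filter.

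Markers of other cell types were detected in the near-projecting nuclei of all groups. Summed over 7 astrocyte markers, the level ranged from 799 to 1965.5 CPM in WT controls, 1109 to 1641 in alcohol-exposed WT mice, 1279.7 to 1374 in 3xTg-AD controls and 1219.8 to 1553 in alcohol-exposed 3xTg-AD mice. For 8 oligodendrocyte markers the ranges were 135 to 367, 125 to 228, 212 to 309.9 and 162 to 298 CPM in the same order, with St18 at 0 in all mice, and for 7 microglia markers 44.7 to 88.5, 81.5 to 179.9, 81.6 to 123 and 76.7 to 142 CPM. The 6 layer 6b markers ranged from 65.2 to 132, 77.4 to 143, 141 to 175 and 85.7 to 231 CPM, and the 1 of them that was tested, Svil, was at 1.10 ± 0.30 between genotypes (edgeR, adjusted p = 0.0739). The 10 intratelencephalic markers ranged from 382 to 583 CPM in WT controls, and from 318 to 516, 345 to 442 and 313 to 496 CPM in the other groups. For 11 GABAergic markers the ranges were 395 to 677, 457 to 793, 411 to 619.6 and 355 to 695 CPM in the order of the groups above, and for 8 striatal projection neuron markers 387 to 536, 256 to 593, 424 to 659 and 457 to 546 CPM, with Drd2 at 0 in all mice. Of the 3 GABAergic markers that reached 50 CPM, Nxph1 was at least 2-fold higher in members than in other glutamatergic nuclei, and Lamp5 at least 2-fold lower. The part of these markers in the results above was not tested.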

How the data were processed

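snRNA-Seq (10x Genomics 3' v3.1) was done on the medial PFC of 16 male mice. The authors aligned the reads to mm10 with Cell Ranger 6.1.1 (STAR), filtered nuclei by limits not given in the sources used here, and deposited raw UMI counts of all mice in 1 table, without normalization. Counts were whole numbers, and each nucleus carried its sample's label. The members and gene lists were chosen with earlier results of these data known. Replicates are separate mice per the labels.

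UMIs of the 1470 members were summed per mouse, filtered with filterByExpr (5140 genes passed, of which 3 rule genes were not tested) and fitted with edgeR 4.0.16 in R 4.3.3 (TMM, robust quasi-likelihood fit, a mean for each of 4 groups, limma 3.58.1, statmod 1.5.0). Calls were made at a Benjamini-Hochberg adjusted p of 0.05 or less, and the SE was taken as the log2 fold change divided by the square root of F. Shares were compared by two-sided exact permutation tests (scipy 1.17.1), adjusted over 3 comparisons. Other glutamatergic, Foxp2/Syt6 (Foxp2 and Syt6 sum at least 2, Tshz2 at most 1) and oligodendrocyte nuclei served as comparison. On simulated counts for the combined comparison over 5140 genes, 52.0% of genes changed 2-fold and 98.9% of those changed 4-fold were called, and 0.0854% of unchanged genes. The simulated spread followed the trend over expression level, with no spread particular to a gene or a mouse, so these shares may not hold for the data.

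Named were, of the called genes, up to 15 higher and 15 lower by p for genotype, alcohol and combined and 5 and 5 for the rest (where under 5 were called, the 5 smallest p), called members of lists or else the 2 with the smallest p in the combined comparison, the targeted genes, the 20 highest and 10 lowest ratios, list members past 2-fold against other glutamatergic nuclei, and at most 3 predicted (Gm) genes, except those set apart for a mouse or for RNA quality. Alternatives were DESeq2 1.42.0, RLE scaling, no filter on low counts, at least 6 marker UMIs, leaving out the 3 mice of high Gm42418, a Gm42418 covariate, and leaving out each mouse. After seeing the data, 3 choices were added, namely leaving out 52 members (3.54%) with over 2 times the median UMIs of their mouse, the Foxp2/Syt6 rule, since the planned corticothalamic rule gave 0 nuclei in WT control 28, and the test of the difference from other glutamatergic nuclei. No doublet caller was run. Positions are from GENCODE M21. Some items, an allele of the mouse line and a few genes among them, are not reported here.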

Additional observations from a re-analysis of the deposited data

Results flagged for a closer look

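Within groups of 4 mice, 7 of 156 sets of levels of called genes held 1 mouse far from the other 3 by Dixon's criterion, and chance alone flags about 1 set in 20. All levels here are TMM-scaled CPM in near-projecting nuclei. WT alcohol mouse 6 stood high for Galnt1 (279.3, the others 92.7 to 109.6) and for Adcy2 (477.1, the others 316 to 335), both genes that were lower in 3xTg-AD mice. WT alcohol mouse 18 stood low for Dynlt1f (12.9, the others 42.8 to 48.4), which is 2 UMIs against 6 to 8. 3xTg-AD control 14 stood high for Gm19667 (65.87, the others 8.16 to 17.5), within the range of WT mice, at 7 UMIs against 1 to 3. 3xTg-AD alcohol mouse 31 held 4.734 CPM of Gm17167, which is 1 UMI, and the others 0. 3xTg-AD alcohol mouse 4 stood high for Parg (72.16, the others 50.04 to 52.07) and for Gm49179 (139.8, the others 73.6 to 81.3). For Parg this was 16 UMIs against 8 to 11, and for Gm49179 31 against 13 to 17.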

How the results depend on the processing

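Counts of called genes are given in the order genotype, alcohol, combined, genotype in controls, alcohol in WT, alcohol in 3xTg-AD and genotype under alcohol, where the main counts were 26, 11, 16, 3, 3, 1 and 10. RLE scaling moved no count by over 1.5 times. Without a filter on low counts, 54 genes were called for genotype, 32 in the combined comparison, 9 in controls, 6 for alcohol in WT, 2 in 3xTg-AD and 17 under alcohol. DESeq2 called 20 for alcohol. With at least 6 marker UMIs, 6 were called for alcohol and 6 for genotype under alcohol. With the Gm42418 covariate the counts were 6 for alcohol, 5 for genotype in controls, 5 for alcohol in 3xTg-AD and 19 for genotype under alcohol. Without the 3 mice of high Gm42418 they were 25 in the combined comparison, 7 for genotype in controls and 3 for alcohol in 3xTg-AD, and without members of high UMI number 0 and 2 for the latter pair. The cause of these moves was not tested. Leaving out 1 mouse gave 22 to 30, 2 (without WT alcohol 18) to 17 (without WT alcohol 6), 6 (without 3xTg-AD alcohol 31) to 25 (without 3xTg-AD control 12), 0 (without WT control 36) to 7 (without 3xTg-AD control 12), 0 (without WT alcohol 18) to 6 (without WT control 28), 0 (without 3xTg-AD control 13) to 3 (without WT alcohol 18), and 8 to 12. The interaction called 0 genes in edgeR in each of these. In the main fit, 230 of 5137 genes (4.48%) had an unadjusted p under 0.05 for it.

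The share differences without 1 mouse were 0.150 to 0.313 points for genotype, -0.0624 to 0.129 for alcohol and 0.0863 to 0.438 combined, and -0.0026 for alcohol after thinning nuclei to 1000 UMIs. Among the named genes, no sign of a called gene turned. Log2 differences of uncalled genes that turned were, without the 3 mice and with the covariate, -0.027 and -0.0397 for Thy1 and 0.0292 and 0.152 for Pclo (both combined), -0.0507 and -0.0167 for Thy1 and 0.0406 and 0.0396 for Mapt (both genotype). Homer1 (combined) was at -0.048 with at least 6 marker UMIs and -0.0306 without the 3 mice, and Mapt at 0.0581 without a filter and 0.053 with 6 UMIs. Without 1 mouse, Homer1 ran from -0.233 to 0.289, Junb from -0.820 to 0.507 (both combined), Mapt from -0.0436 to 0.0883, Prnp from -0.138 to 0.0407 and Thy1 from -0.0013 to 0.141 (all genotype). No paired analysis was possible because the groups share no replicate numbers. In the simulation, which covered the combined comparison only and no spread particular to a gene or a mouse, 52.0% of 2-fold changes were called. A gene without a call may therefore still differ.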
